A study of Mus musculus with 3 samples.

Results

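The cells described here were chondrocytes of the healing mouse femur, chosen by 6 genes and called early chondrocytes as a working name. A cell was included when it had at least 5 UMIs of Cnmd per 10000 UMIs of the cell, fewer than 50 UMIs of Col10a1 per 10000, and a UMI of at least 3 of the 6 genes Nrk, Matn4, Penk, Palmd, Zim1, and Plscr2. A UMI, or unique molecular identifier, stands for 1 captured mRNA molecule. The rule was applied to the libraries of day 10 and day 14 after fracture, to cells with 500 to 5000 detected genes, at most 10% mitochondrial UMIs, at most 5% hemoglobin UMIs, and no UMI of Ptprc, which encodes CD45. It took 2350 of 6587 such cells at day 10 (35.7%) and 1381 of 9680 at day 14 (14.3%), or 3731 of 16267 cells in all.

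The libraries came from C57BL/6 mice with a femoral fracture and no treatment. Callus was digested with collagenase, and live CD45-, CD31-, and TER119- cells were sorted at day 7, day 10, and day 14. Each day had 1 library, the labels do not give the age or the number of mice in it, and there were no replicates, so the day and the library cannot be told apart and no p-values were computed. All mice carried the same injury and there was no uninjured group.

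Callus cartilage forms when mesenchymal cells of the periosteum switch on Sox9 and lay down collagen II and aggrecan. These chondrocytes later enlarge, begin to make Ihh, collagen X, and mineralization proteins, and the cartilage is replaced by bone. Cnmd encodes chondromodulin, a protein of avascular cartilage, and Col10a1 encodes collagen X, the collagen of hypertrophic cartilage. Aspn encodes asporin, a small leucine-rich proteoglycan of fibrous and periosteal matrix.

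Early chondrocytes were compared with the other Cnmd+ cells of the same libraries and with Aspn+ cells. The closest comparison was with the 994 cells of day 10 and the 1051 cells of day 14 that met the same limits on Cnmd and Col10a1 but had UMIs of fewer than 3 of the 6 genes, called the other low-Col10a1 chondrocytes. A further 247 and 385 Cnmd+ cells had Col10a1 at 50 or more per 10000. The Aspn+ cells, with Aspn of at least 20 and Cnmd under 5 per 10000, were 1170 and 2898 cells. Median UMIs per cell at day 10 and day 14 were 19080.5 and 20226 in early chondrocytes, 17884.5 and 19186 in the other low-Col10a1 chondrocytes, and 15071.5 and 14192.5 in Aspn+ cells. Since a deeper cell more often shows a UMI of a given gene, the rule favored deep cells, and its take fell from 65.4% (95% CI, 63.9% to 67.0%) to 31.0% of the Cnmd+ cells of day 10 when every cell was thinned to 5000 UMIs. At day 14 it fell from 49.0% (95% CI, 47.2% to 50.9%) to 21.5%. Intervals for shares of cells are exact (Clopper-Pearson), those for ratios are exact binomial intervals, and all cover counting error only.

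The 3 promoters shown here belong to genes that the results turn on, namely the growth factor gene Igf2, the cartilage matrix gene Ucma, and the kinase gene Nrk, which helped to choose the cells. Each runs from 250 bases before to 50 bases after a RefSeq start site in GRCm38.p6 and is given 5′ to 3′ on the strand of the gene. Igf2 lies at chr7:142650766-142666816, and the window shown, chr7:142661222-142661521 on the minus strand, is 1 of 4 for this gene. Ucma lies at chr2:4976122-4985748, with its window at chr2:4975872-4976171 on the plus strand. Nrk lies at chrX:138914430-139010532, with its window at chrX:138914180-138914479 on the plus strand. Capitals mark matches, on either strand, to the SOX motifs AACAATG and ACAAAGG, the AP1 motif TGACTCA, and the cAMP response motif TGACGTCA.
Igf2: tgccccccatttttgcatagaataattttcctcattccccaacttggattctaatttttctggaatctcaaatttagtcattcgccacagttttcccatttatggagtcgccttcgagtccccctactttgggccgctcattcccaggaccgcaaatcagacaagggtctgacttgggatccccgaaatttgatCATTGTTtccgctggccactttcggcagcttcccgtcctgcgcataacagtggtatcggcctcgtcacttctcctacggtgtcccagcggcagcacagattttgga
Ucma: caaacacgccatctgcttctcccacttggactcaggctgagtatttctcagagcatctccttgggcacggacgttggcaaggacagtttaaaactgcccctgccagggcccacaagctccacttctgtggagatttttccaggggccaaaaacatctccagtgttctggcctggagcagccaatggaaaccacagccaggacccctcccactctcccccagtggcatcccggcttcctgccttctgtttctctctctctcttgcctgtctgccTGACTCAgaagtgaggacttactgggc
Nrk: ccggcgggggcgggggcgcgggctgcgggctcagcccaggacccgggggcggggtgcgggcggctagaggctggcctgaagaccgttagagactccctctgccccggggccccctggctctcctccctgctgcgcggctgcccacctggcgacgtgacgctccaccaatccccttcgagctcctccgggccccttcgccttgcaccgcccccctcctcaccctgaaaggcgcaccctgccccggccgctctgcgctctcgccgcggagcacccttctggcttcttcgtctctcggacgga

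The Igf2 window held AACAATG on the reverse strand, read as CATTGTT on the strand shown, with its first base at position -56 from the start site, and the other 3 Igf2 windows held no match. This motif was in 3.78% of 32851 RefSeq promoters of the same length. The Ucma window held TGACTCA at position 23, a motif in 5.20% of promoters. The Nrk window held no match, and ACAAAGG and TGACGTCA, which were in 5.88% and 1.79% of promoters, matched none of the 3 windows. Of the 16 genes looked up, 11 had a RefSeq promoter entry, with 15 promoters among them, of which 2, those of Igf2 and Ucma, held a match. A match describes letters only, and UMIs of the 3′ end do not tell which start site was in use.

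The genes of the rule are given as a description, since they chose the cells. Nrk, a kinase gene on the X chromosome, had UMIs in 70.5% of early chondrocytes at day 10 and 60.8% at day 14, at 116 and 89.3 CPM (counts per 1000000 UMIs, summed over the cells of a group). Penk, which encodes the opioid precursor proenkephalin, was seen in 51.4% and 56.3%, at 107 and 131 CPM. Palmd, which encodes palmdelphin, was seen in 31.4% and 34.3%, and Plscr2, which encodes a phospholipid scramblase, in 29.2% and 35.1%. Nrk and Penk were thus present in most but not all of the cells that carry their names.

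Matn4 and Zim1 were the most frequent of the 6 genes. Matn4, which encodes the matrix protein matrilin 4, was seen in 99.1% of early chondrocytes on both days, and Zim1, an imprinted zinc finger gene, in 97.1% and 88.4%. Both were present together in 96.3% and 87.5% of early chondrocytes, and also in 67.4% and 45.5% of the other low-Col10a1 chondrocytes. A cell with Matn4 and Zim1 needed just 1 more gene, and 976 early chondrocytes of day 10 (41.5%) and 541 of day 14 (39.2%) had both plus exactly 1 of Nrk, Penk, Palmd, and Plscr2. Among cells with both Matn4 and Zim1, the separation was therefore set by the presence of these 4 less frequent genes. None of the 4 was seen in 86.8% and 79.6% of the other low-Col10a1 chondrocytes, a share that the rule itself shaped. Zim1 also differed, being seen in 72.9% and 48.5% of the other low-Col10a1 chondrocytes.

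At day 10, 1036 cells had 3 of the 6 genes and 796 had 2, and at day 14 there were 662 and 678. Igf2 was at 75.4 and 42.1 CPM in the cells with 3 genes and at 37.4 and 20.8 CPM in those with 2. Near the Cnmd limit, 73 and 83 early chondrocytes had 5 to 7.5 per 10000. Outside it, 72 and 107 cells that met the rest of the rule had Cnmd of 2.5 to 5. Col2a1 was at 15641 and 8559 CPM inside and 11314 and 8022 CPM outside. Of the cells that met the rest of the rule, few lay near the Col10a1 limit, 33 and 18 from 25 to 50 and 10 and 15 from 50 to 75 per 10000. Cells with fewer than 3 of the 6 genes were not counted near these limits.

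Genes that define cartilage are given as a description. Opposite limits on the cartilage gene Cnmd had set early chondrocytes and Aspn+ cells apart, so this contrast does not test the label. Col2a1, which encodes collagen II, stood at 41560 CPM (day 10) and 32552 CPM (day 14) in early chondrocytes, against 706 and 660 CPM in Aspn+ cells, and all but 1 of the early chondrocytes had a UMI of it. Sox9, the master transcription factor of cartilage, was at 688 and 459 CPM against 259 and 199 CPM. Both genes were close to their levels in the other low-Col10a1 chondrocytes, with log2 ratios of 0.00 and -0.05 for Col2a1 and 0.02 and 0.08 for Sox9. The word early could be checked only through genes of hypertrophy, described further on, since no cell was followed in time. Those genes were lower than in the other low-Col10a1 chondrocytes but, as a list, not lower than in Aspn+ cells.

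Cartilage transcripts were also present outside cartilage cells. In 59 cells of day 10 and 167 cells of day 14 with Rgs5, a pericyte gene, at 50 or more per 10000, Col2a1 was at 1383 and 812 CPM and was seen in 100% and 94.6% of the cells. Their median depths of 12514 and 9076 UMIs were below those of early chondrocytes. Nrk was seen in 0 of 59 of these cells, which by the limit of 3 counts allows a share of cells with a UMI of up to 5.08% at this depth, and in 2.99% of the 167. Penk was seen in 3.39% and 1.80% and Igf2 in 5.08% and 4.19% of these cells. Nrk and Penk chose the early chondrocytes, so only Igf2 was set against this background. After thinning each cell to 5000 UMIs, Igf2 was seen in 25.03% and 17.06% of early chondrocytes and in 3.51% and 3.36% of the cells with Rgs5. The levels of Col2a1 in Aspn+ cells were no higher than in the cells with Rgs5.

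**Figure D1:**
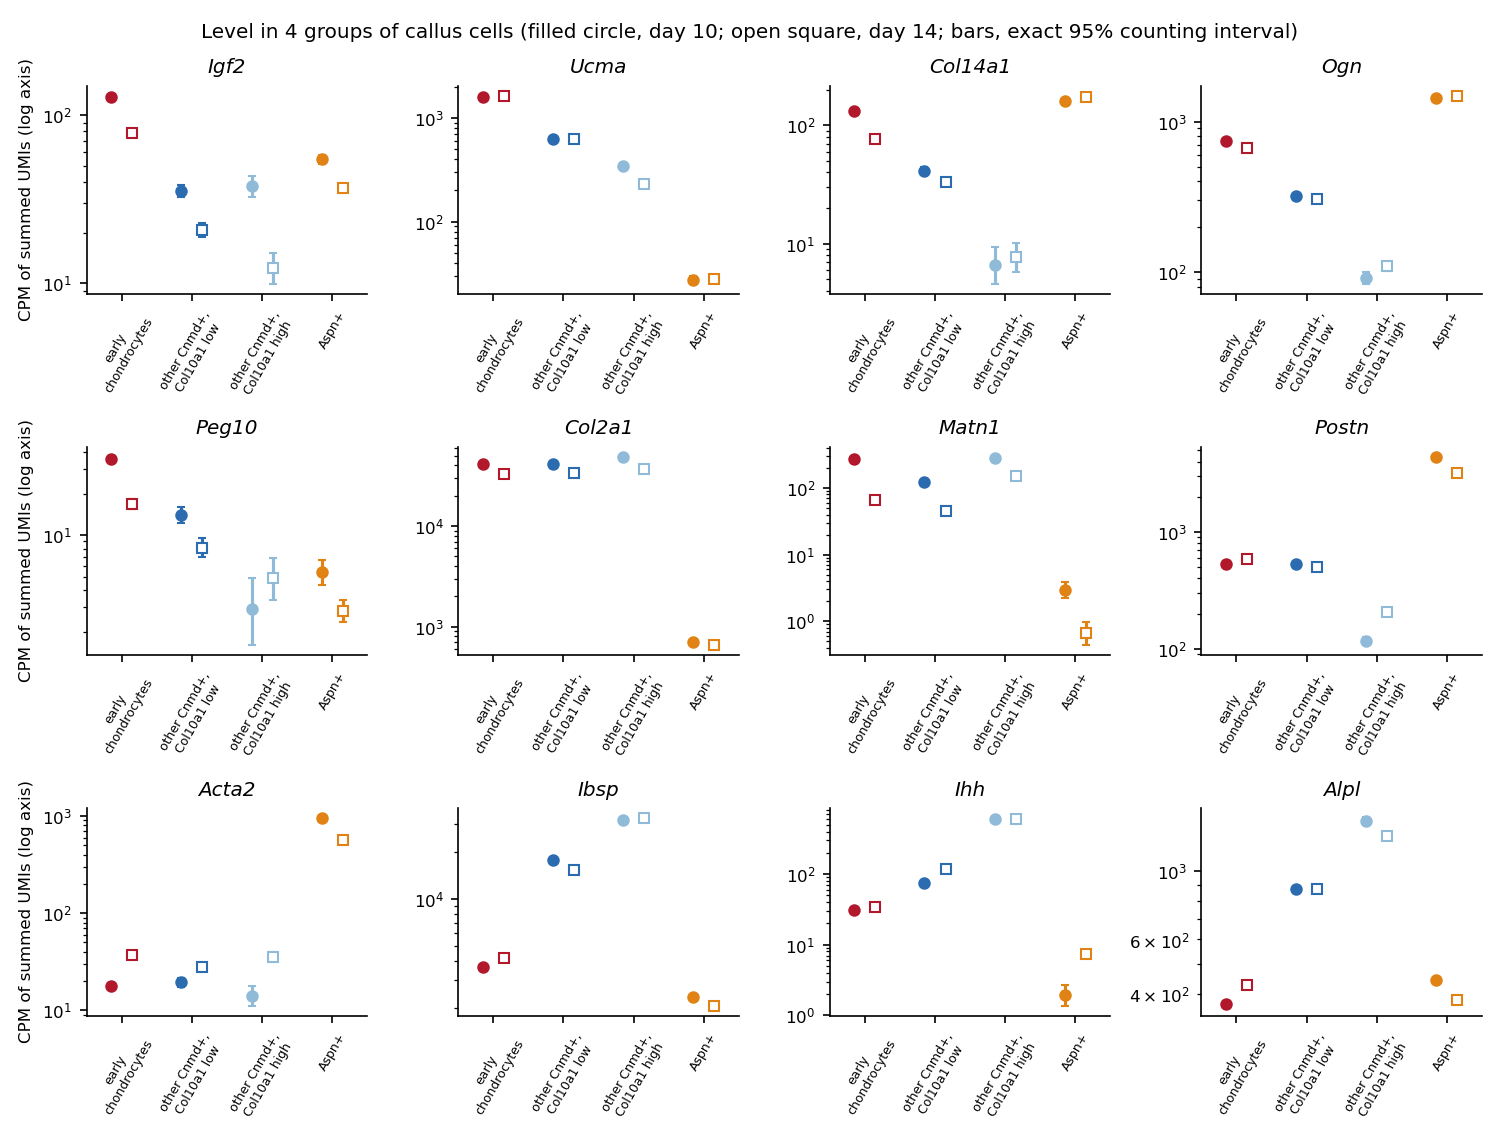
Levels of 12 genes in early chondrocytes, the other Cnmd+ cells below and above the Col10a1 limit, and Aspn+ cells, as CPM of summed UMIs on a log axis, with filled circles for day 10, open squares for day 14, and bars for the exact 95% counting interval. Igf2 and Ucma were highest in early chondrocytes on both days, Ogn and Col14a1 lay between the chondrocytes and the Aspn+ cells, and Ibsp, Ihh, and Alpl were lowest among the Cnmd+ groups in early chondrocytes.

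Against the other low-Col10a1 chondrocytes, early chondrocytes differed by the fold limit in few genes. Igf2, Ucma, Col14a1, and Ogn were among the genes that rose, and Ibsp, Ihh, Spp1, Alpl, and Mmp13 were among those that fell. A gene was called higher or lower when its CPM differed by a log2 ratio of at least 1 in the same direction in both libraries. Of 9165 genes at 5 CPM or more over all cells of each library, 23 were higher (0.251%) and 45 were lower (0.491%). Most genes differed little, since the middle 90% of log2 ratios ran from -0.41 to 0.41 at day 10 and from -0.37 to 0.41 at day 14. Against all other Cnmd+ cells, including those with Col10a1, 49 genes were higher (0.535%) and 111 were lower (1.21%).

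Igf2, a fetal growth factor gene that is expressed from the paternal copy, was the label's only marker that the rule did not use. Its level in early chondrocytes was 127 CPM on day 10 and 78.3 CPM on day 14, beside 35.2 and 20.7 CPM in the other low-Col10a1 chondrocytes. The log2 ratio was 1.85 (95% CI, 1.73 to 1.98) at day 10 and 1.92 (95% CI, 1.76 to 2.07) at day 14. Igf2 was seen in 38.9% and 29.6% of early chondrocytes, so most had no UMI of it, and after thinning to 5000 UMIs in 25% and 17.1% against 7.98% and 7.08%. The 10 cells with most Igf2 held 8.18% and 14.2% of its UMIs in early chondrocytes. Without the 1% of cells of each group with most Igf2 the log2 ratios were 2.17 and 2.16. That cut took 15.6% and 18.5% of the Igf2 UMIs of early chondrocytes. It took 32.3% and 30.9% of those of the other low-Col10a1 chondrocytes, which by itself raises the ratio. Most Igf2 UMIs of early chondrocytes thus lay outside these few cells, and the rise itself is no check.

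Ucma, which encodes a small Gla-rich protein of cartilage matrix, also rose. It was at 1608 and 1646 CPM in early chondrocytes, 630 and 628 CPM in the other low-Col10a1 chondrocytes, and 27.1 and 27.9 CPM in Aspn+ cells. The log2 ratios between the chondrocyte groups were 1.35 (95% CI, 1.32 to 1.38) and 1.39 (95% CI, 1.36 to 1.42). It was the only 1 of 20 cartilage matrix genes past the limit in this comparison, and the median log2 ratio of the list was 0.04 and -0.04 beside 0.00 and 0.02 over all genes. Epyc, which encodes the cartilage proteoglycan epiphycan, stood just under the limit, with log2 ratios of 0.98 and 0.91. Phyh, a peroxisomal enzyme gene that neighbors Ucma at chr2:4919019-4938730, was higher by 1.16 on both days.

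Several genes of fibrous matrix were higher in early chondrocytes than in the other chondrocytes and highest in Aspn+ cells. Col14a1, which encodes a fibril-associated collagen, stood at 133 and 77.2 CPM in early chondrocytes, 41.4 and 33.3 CPM in the other low-Col10a1 chondrocytes, and 161 and 174 CPM in Aspn+ cells. Ogn, which encodes the proteoglycan osteoglycin, was at 738 and 663 CPM, 322 and 306 CPM, and 1436 and 1481 CPM, respectively. Of 20 genes in the list of fibroblastic progenitor matrix, Ogn, Mfap4, and Sfrp2 passed the limit and none was lower, with log2 ratios of 1.64 and 1.61 for the microfibril gene Mfap4 and 1.35 and 1.16 for the Wnt antagonist gene Sfrp2. The list as a whole had medians of -0.02 and 0.14. Within the group, Ogn, Mfap4, and Sfrp2 were each highest in the early chondrocytes with most Aspn, described further on. Postn, which encodes periostin and marks the progenitors at the center of the study, was not among the genes that passed, at 537 and 584 CPM against 534 and 504 CPM.

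The position between both neighbors was mixed rather than uniform. Of the 23 genes higher than in the other low-Col10a1 chondrocytes in both libraries, 9 were also higher than in Aspn+ cells, 10 were lower than in Aspn+ cells, and 4 were within the limit. Of the 45 lower genes, 10 were lower than in Aspn+ cells as well, 10 were higher than in Aspn+ cells, and 25 were within the limit. Abi3bp, which encodes an extracellular matrix protein, was an example of the intermediate kind, at 119 and 163 CPM beside 51.7 and 80.2 CPM in the other chondrocytes and 599 and 678 CPM in Aspn+ cells, though its log2 ratio of 1.02 at day 14 was 0.85 as a mean over cells.

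The 9 genes higher than in both groups were Igf2, Dlk1, Peg10, Ucma, Phyh, C4b, Serpina3n, Clmn, and Ctnnal1. Dlk1, an imprinted gene for a Notch-like membrane protein, was at 9.22 and 6.16 CPM and was seen in 142 and 70 early chondrocytes, with log2 ratios of 1.61 and 1.82 over the other low-Col10a1 chondrocytes and of 2.44 and 2.58 over Aspn+ cells. Peg10, an imprinted gene derived from a retrotransposon, was at 35.4 and 16.8 CPM, with log2 ratios of 1.33 and 1.05 and of 2.71 and 2.58. C4b, a complement gene, and Serpina3n, a protease inhibitor gene, have near-identical relatives in the genome and their counts are uncertain. The membership of this group was not firm for every gene, since Igf2 over Aspn+ cells was 1.22 and 1.08 on summed UMIs but 0.96 and 0.98 as a mean over cells. Peg10 and Ctnnal1 over the other chondrocytes fell under the limit at day 14 as a mean over cells, at 0.94 and 0.99, and Ctnnal1 and Serpina3n did after thinning, at 0.94 on day 10 and 0.78 on day 14.

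Imprinted growth genes stood above 0 as a list. Imprinted genes are expressed from 1 parental copy, and many act on fetal growth. Of the 17 genes tested out of 22 listed, 15 were above 0 in both libraries against the other low-Col10a1 chondrocytes, 1 was below 0, and 3 passed the limit (Igf2, Peg10, and Dlk1). Over all genes 0.251% were higher by the limit, and how many lay above 0 in both libraries is not given here. The median log2 ratio was 0.45 at day 10 and 0.60 at day 14, beside 0.00 and 0.02 over all genes. Zim1, which is in the list, was left out as a gene of the rule, and Peg3, the zinc finger gene beside it at chr7:6703892-6730431, was at 2569 and 1644 CPM against 1877 and 1044 CPM. H19, a noncoding RNA gene of the same domain as Igf2, was at 1188 and 627 CPM against 897 and 414 CPM. The gene below 0 was Slc38a4, an amino acid transporter gene, with log2 ratios of -0.54 and -0.42, and Cdkn1c, a cell cycle inhibitor gene, was at 0.23 and -0.09.

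Genes of hypertrophy were lower without exception in direction. All 15 tested genes of the list were below 0 in both libraries against the other low-Col10a1 chondrocytes. How many of all genes were below 0 in both libraries is not given here. The medians were -0.81 and -0.86, beside 0.00 and 0.02 over all genes, and 5 passed the limit, beside 0.491% of all genes. Ibsp, which encodes bone sialoprotein, was at 3638 and 4178 CPM in early chondrocytes and at 17590 and 15275 CPM in the others, a log2 ratio of -2.27 (95% CI, -2.28 to -2.26) and -1.87 (95% CI, -1.88 to -1.86). Ihh, the hedgehog ligand gene of prehypertrophic cartilage, was at 30.7 and 34.1 CPM against 74.3 and 119 CPM. Spp1, which encodes osteopontin, had log2 ratios of -1.42 and -1.13, Alpl, which encodes tissue-nonspecific alkaline phosphatase, -1.24 and -1.03, and the collagenase gene Mmp13 -1.52 and -1.01. Col10a1 itself was under the same limit in both groups, at 184 and 222 CPM in early chondrocytes and 388 and 491 CPM in the others. Pth1r, the receptor gene for PTHrP, and Mef2c, a transcription factor gene of hypertrophy, were at -0.94 and -0.98 and at -0.78 and -0.86, short of the limit.

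Osteoblast genes were lower too, and the UMIs of Bglap sat in few cells. Of 7 tested genes, 5 passed the limit (Bglap, Bglap2, Dmp1, Ifitm5, and Phex) and none was higher, with medians of -1.69 and -1.51. Over all genes 0.491% were lower by the limit, and the medians were 0.00 and 0.02. Bglap, which encodes osteocalcin, was at 9.40 and 17.2 CPM in early chondrocytes against 67.7 and 154 CPM, but 10 cells held 75.8% and 72.8% of its UMIs in the other low-Col10a1 chondrocytes. Without the 1% of cells with most Bglap its log2 ratio went from -2.85 and -3.17 to -2.46 and -2.38. Bglap and Bglap2 are near-identical copies and their counts cannot be assigned with certainty. Hpgd, a prostaglandin-degrading enzyme gene, and F13a1, the gene of a coagulation factor XIII subunit, were also lower, by log2 ratios of -1.52 and -1.32 and of -1.28 and -1.71.

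**Figure D2:**
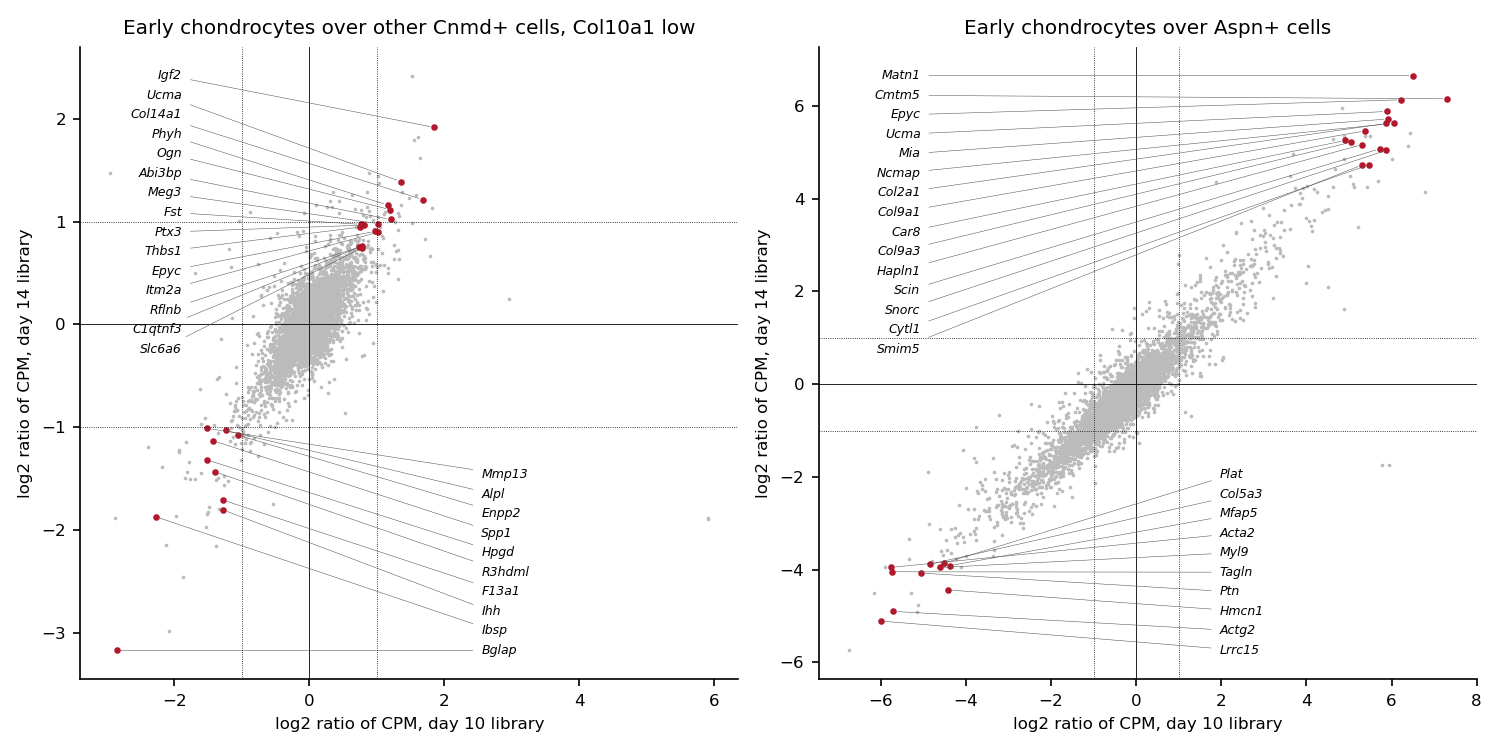
Each point is a gene, with its log2 ratio of CPM in early chondrocytes over a comparison group in the day 10 library on the horizontal axis and in the day 14 library on the vertical axis, for the other low-Col10a1 chondrocytes and for Aspn+ cells, with dotted lines at a log2 ratio of 1 in either direction and red points for the 15 highest and 10 lowest genes at 50 CPM or more. Among the red points of the first comparison Igf2 was highest, at 1.85 and 1.92, and Bglap lowest, at -2.85 and -3.17, while the spread of all genes was wider against Aspn+ cells.

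Few signaling genes passed the limit between the chondrocyte groups, beside 0.251% of all genes higher and 0.491% lower, so a list of this size with no such gene does not stand apart. None of 12 chondrogenic transcription factors, 13 mesenchymal transcription factors, 18 BMP and GDF genes, 13 TGF-beta genes, or 8 FGF genes passed the limit in either direction. Of 19 Wnt genes, 2 were lower, the Wnt inhibitor gene Wif1 at log2 ratios of -1.18 and -1.13 and the transcription factor gene Tcf7 at -1.61 and -1.45. Of 9 hedgehog and PTHrP genes only Ihh passed, on the lower side. Of 15 IGF axis genes only Igf2 passed, and the receptor genes were close to level, with Igf1r at -0.36 and -0.14 and Igf2r at 0.10 and 0.07. Sox5, a partner of Sox9, was at 0.56 and 0.51, within the limit.

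Most other genes of the opioid system were too low to compare. Of the 14 genes of opioid peptides, their processing, and their receptors, Penk belonged to the rule, 11 were under 5 CPM over all cells in at least 1 library, and 2, Cpe and Ogfr, were tested. Ogfr, which encodes the opioid growth factor receptor, was at 55.8 and 45.6 CPM in early chondrocytes and stayed within the limit against both groups. Cpe, which encodes the carboxypeptidase that trims such peptides, was at 322 and 374 CPM in early chondrocytes, 443 and 496 CPM in the other low-Col10a1 chondrocytes, and 73.5 and 99.2 CPM in Aspn+ cells. It was thus higher than in Aspn+ cells, by 2.13 and 1.92 on the log2 scale, and at -0.46 and -0.41 against the other chondrocytes.

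Against Aspn+ cells, the early chondrocytes differed in far more genes, and in the direction of cartilage. Opposite limits on the cartilage gene Cnmd had set these groups apart. Here 352 genes were higher (3.84%) and 852 were lower (9.3%) of 9164. The median log2 ratio over all genes was -0.28 at day 10 and -0.26 at day 14, and after centering on it 465 genes were higher and 587 lower. Of 20 cartilage matrix genes 17 were higher, with medians of 4.64 and 4.45, among them Col9a1, which encodes a chain of collagen IX, at 4387 and 3399 CPM against 106 and 77.0 CPM. The exceptions were the lubricin gene Prg4 and the intermediate-layer protein gene Cilp, which were lower, and the fibromodulin gene Fmod, at log2 ratios of -0.03 and 0.06. Matn1, which encodes matrilin 1, and Cmtm5 had the highest ratios, 6.50 and 6.65 and 7.30 and 6.16. Of 12 chondrogenic transcription factors, Sox5, Sox6, Sox8, Sox9, and Wwp2 were higher and the homeobox gene Barx2 was lower. Wwp2, a ubiquitin ligase gene, was kept in that list as a partner of Sox9. Of 15 hypertrophy genes, 5 were higher than in Aspn+ cells (Ihh, Foxa3, Panx3, Pth1r, and Mef2c) and 1, Mmp13, was lower. The medians of that list were 0.59 and 0.53, beside -0.28 and -0.26 over all genes.

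Fibrous and contractile genes were lower. Of 19 fibroblastic matrix genes 13 were lower and none was higher, with medians of -2.24 and -1.95. Postn was at 537 and 584 CPM against 4389 and 3187 CPM in Aspn+ cells, a log2 ratio of -3.03 (95% CI, -3.05 to -3.01) and -2.45 (95% CI, -2.47 to -2.43). Ptn, which encodes the growth factor pleiotrophin, was at -5.06 and -4.07, the smooth muscle actin gene Acta2 at -5.76 and -3.95, and Lrrc15, a fibroblast surface protein gene, at -6.00 and -5.11. Prrx1 and Prrx2, homeobox genes of limb mesenchyme, were among 6 of 13 mesenchymal transcription factors that were lower.

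Genes of growth factor systems passed in both directions. Igf1 stood at 283 and 400 CPM in early chondrocytes against 879 and 1167 CPM in Aspn+ cells, log2 ratios of -1.64 and -1.54, opposite in direction to Igf2. The binding protein genes Igfbp3, Igfbp4, Igfbp5, and Igfbp6 were lower as well, with Igfbp5 at -3.13 and -2.60. Of 18 BMP and GDF genes 7 were higher and none was lower, including Id1, a target of BMP signaling, at 2.63 and 2.81 and the joint growth factor gene Gdf5 at 1.80 and 1.31. Of 19 Wnt genes 4 were higher, with the secreted antagonist gene Sfrp5 at 4.88 and 4.86, and 6 were lower. Fgfr3, the FGF receptor gene that restrains cartilage growth, was higher by 2.30 and 2.66, while Fgfr1 was among 3 FGF genes that were lower. Of 17 imprinted genes 7 were higher and none was lower, led by Plagl1 at 3.11 and 2.59, Peg10 at 2.71 and 2.58, and Peg3 at 2.45 and 2.38.

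**Figure D3:**
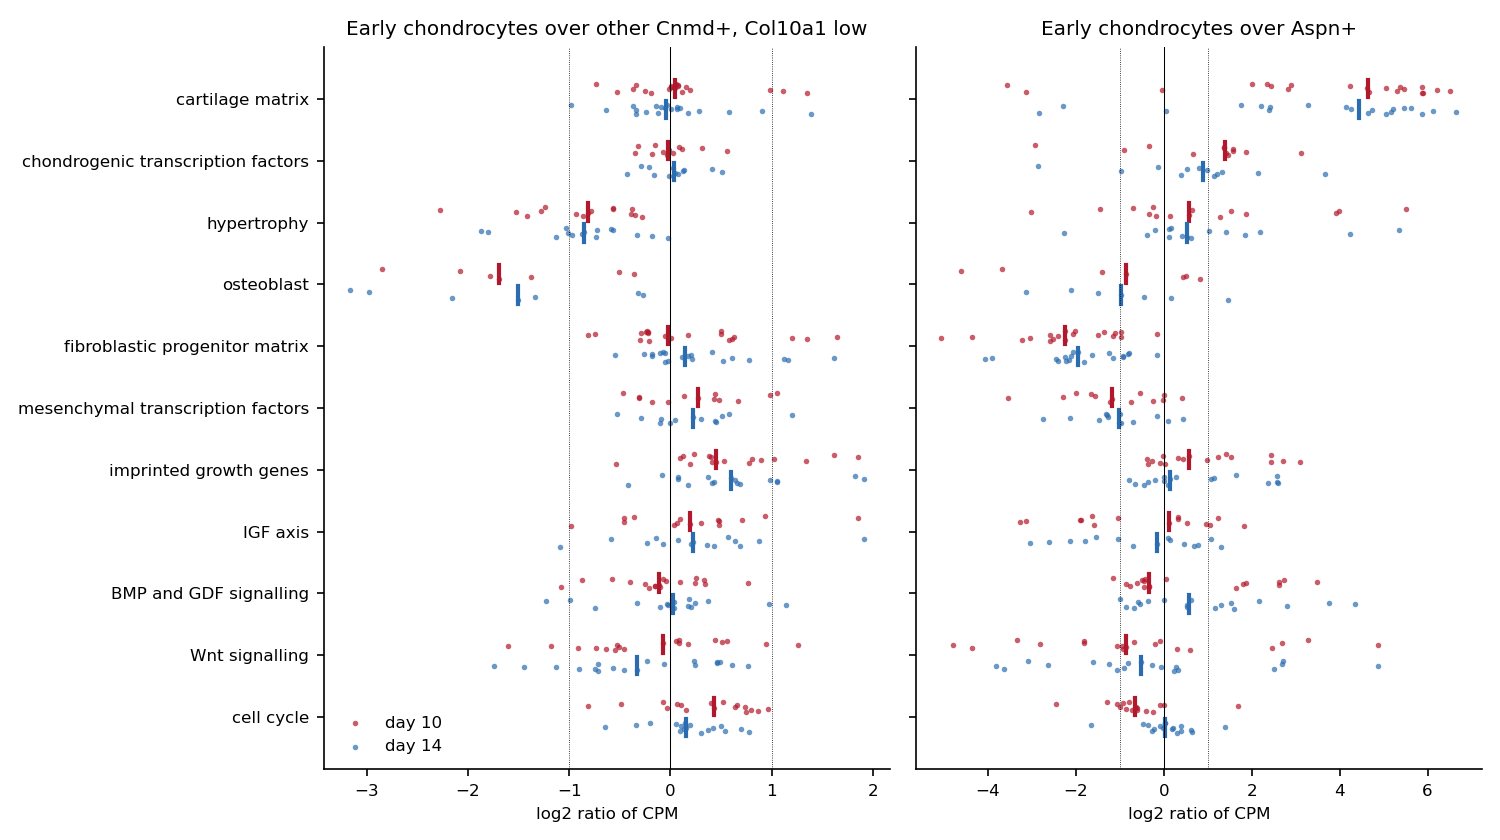
Log2 ratios of CPM for the tested genes of each list, in early chondrocytes over the other low-Col10a1 chondrocytes and over Aspn+ cells, for day 10 (red) and day 14 (blue), with points for genes, vertical bars for medians, and dotted lines at a log2 ratio of 1 in either direction. The hypertrophy genes lay below 0 in the first comparison, with medians of -0.81 and -0.86, and the cartilage matrix genes lay far above 0 in the second, with medians of 4.64 and 4.45.

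Early chondrocytes differed among themselves with the number of rule genes seen. Cells with 3, 4, 5, and 6 of the 6 genes numbered 1036, 849, 392, and 73 at day 10 and 662, 462, 210, and 47 at day 14. Igf2, which played no part in this count, was at 75.4, 145, 215, and 213 CPM across these cells at day 10 and at 42.1, 74.9, 156, and 302 CPM on day 14. Ucma ran from 1264 to 2558 CPM on day 10 and from 1155 to 2966 CPM on day 14. Ibsp ran the other way, at 6111, 2030, 827, and 1082 CPM on day 10 and at 6794, 2283, 697, and 316 CPM on day 14. The cells with 3 genes thus held most of the bone sialoprotein RNA of the group. Median UMIs per cell did not climb with the count, at 19585.5 in cells with 3 genes and 18355 in cells with 6 at day 10.

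**Figure D4:**
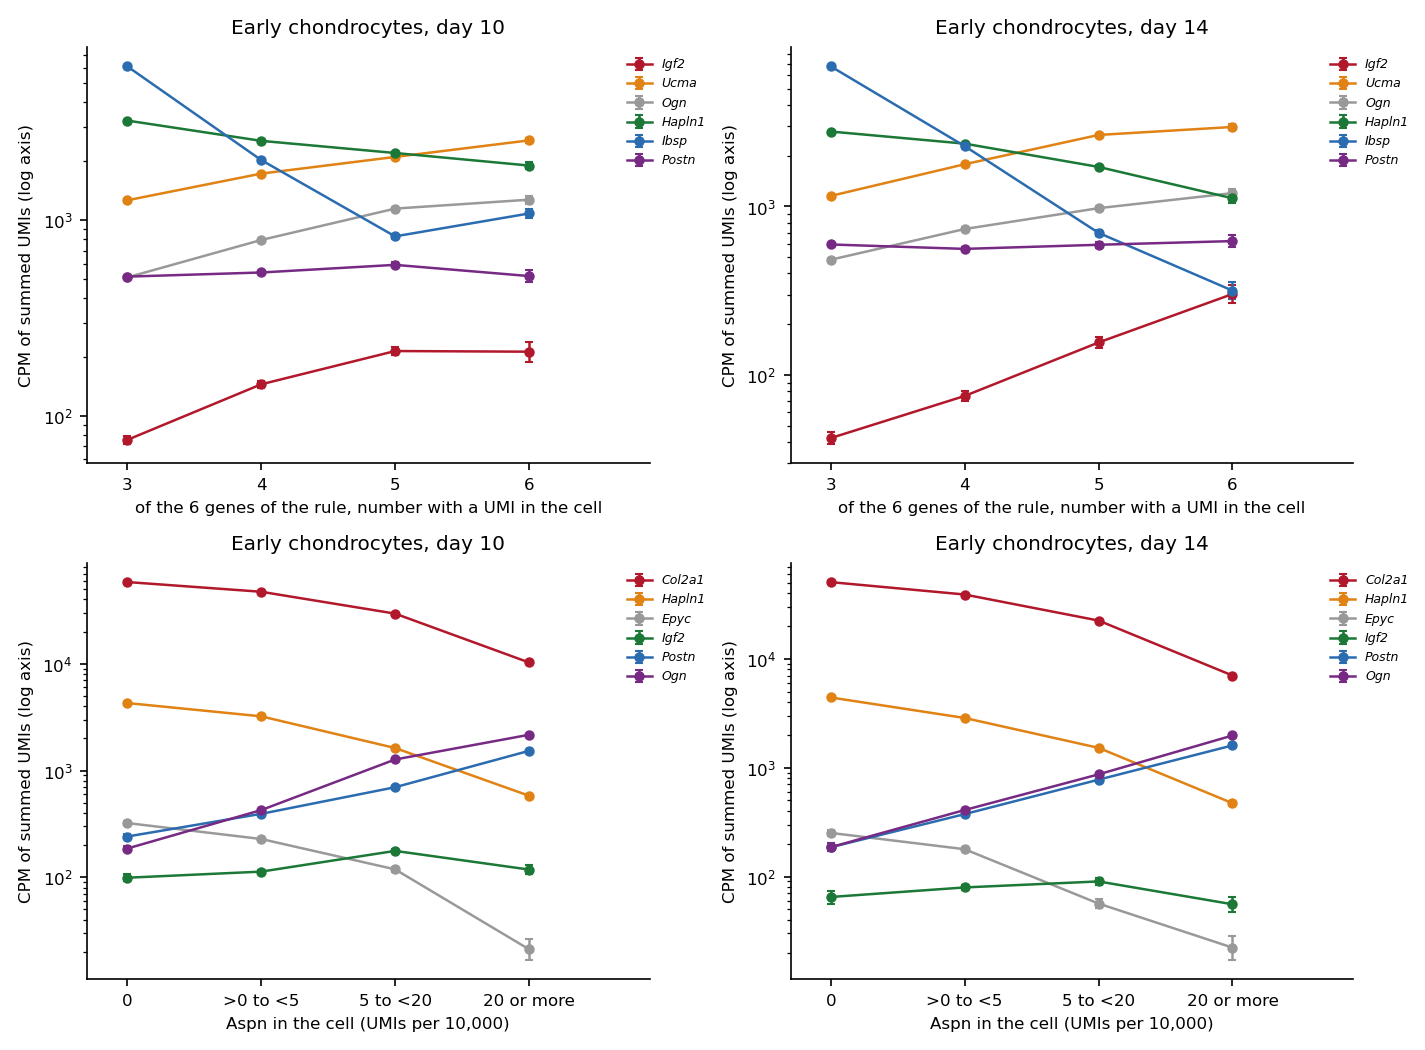
Levels in early chondrocytes, as CPM of summed UMIs on a log axis, by the number of rule genes with a UMI in the cell and by Aspn per 10000 UMIs, for each day, with bars for the exact 95% counting interval. Igf2 was higher and Ibsp lower in cells with 5 genes than in cells with 3, and Col2a1, Hapln1, and Epyc were lowest where Aspn was highest.

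A second difference among early chondrocytes ran with Aspn. The Aspn level was above 20 per 10000 or equal to it in 238 early chondrocytes of day 10 (10.1%) and 162 of day 14 (11.7%). Such cells were not particular to the group, since they were 55 (5.53%) and 106 (10.1%) of the other low-Col10a1 chondrocytes. From cells with no Aspn UMI, through cells above 0 and under 5 and cells from 5 to under 20, to cells at 20 or more, Col2a1 was at 58230, 47231, 29483, and 10283 CPM on day 10 and 50512, 38880, 22414, and 7013 CPM on day 14. Postn went from 241 to 1529 CPM and from 186 to 1600 CPM between the ends of this range, and Ogn from 186 to 2162 CPM and from 186 to 1972 CPM. Sfrp2 went from 4.89 to 168 CPM and from 4.94 to 226 CPM, and Mfap4 from 13.0 to 104 CPM and from 5.56 to 163 CPM. Collagen II and periostin RNA thus ran in opposite directions within the group. Penk went from 45.1 to 402 CPM and from 62.7 to 343 CPM, while Nrk ranged from 88.4 to 148 CPM and from 85.3 to 99.7 CPM. Sox9 fell along this range, from 783 to 518 CPM and from 566 to 354 CPM. In the cells with most Aspn it was still above the 259 and 199 CPM of the Aspn+ cells outside the group.

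High doublet scores, which rate how much a cell resembles simulated pairs of cells, moved with Aspn. Of early chondrocytes, 7.56% with no Aspn and 17.2% with Aspn of 20 or more were among the 8% of cells with the highest scores at day 10, and 4.61% and 19.8% at day 14. Median UMIs went down along the same range, from 20739.5 to 15298 at day 10 and from 22046 to 16884 at day 14. The part of doublets in this pattern was not tested. Over the whole group, 12.5% of early chondrocytes at day 10 and 12.2% at day 14 had such scores. The shares were 9.96% and 10.8% in the other low-Col10a1 chondrocytes and 2.48% and 7.52% in Aspn+ cells. The scores separated poorly, so no cell was removed as a doublet in the main comparisons.

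By the rest of their genes, early chondrocytes lay close to each other and to the other chondrocytes. Among the 20 nearest cells by 30 principal components of 2000 variable genes, with the genes of the rule left out, 76.6% of the neighbors of early chondrocytes at day 10 were early chondrocytes, and 62.7% at day 14, beside their shares of 35.7% and 14.3% of all cells. Only 1.94% and 5.25% of the neighbors were Aspn+ cells. Counting only neighbors from the chondrocyte groups under the Col10a1 limit, 80.7% and 71.9% were early chondrocytes, beside 70.3% and 56.8% of those cells. The neighbors of the other low-Col10a1 chondrocytes were themselves early chondrocytes in 47.4% and 36.1% of cases, so the groups overlapped widely.

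**Figure D5:**
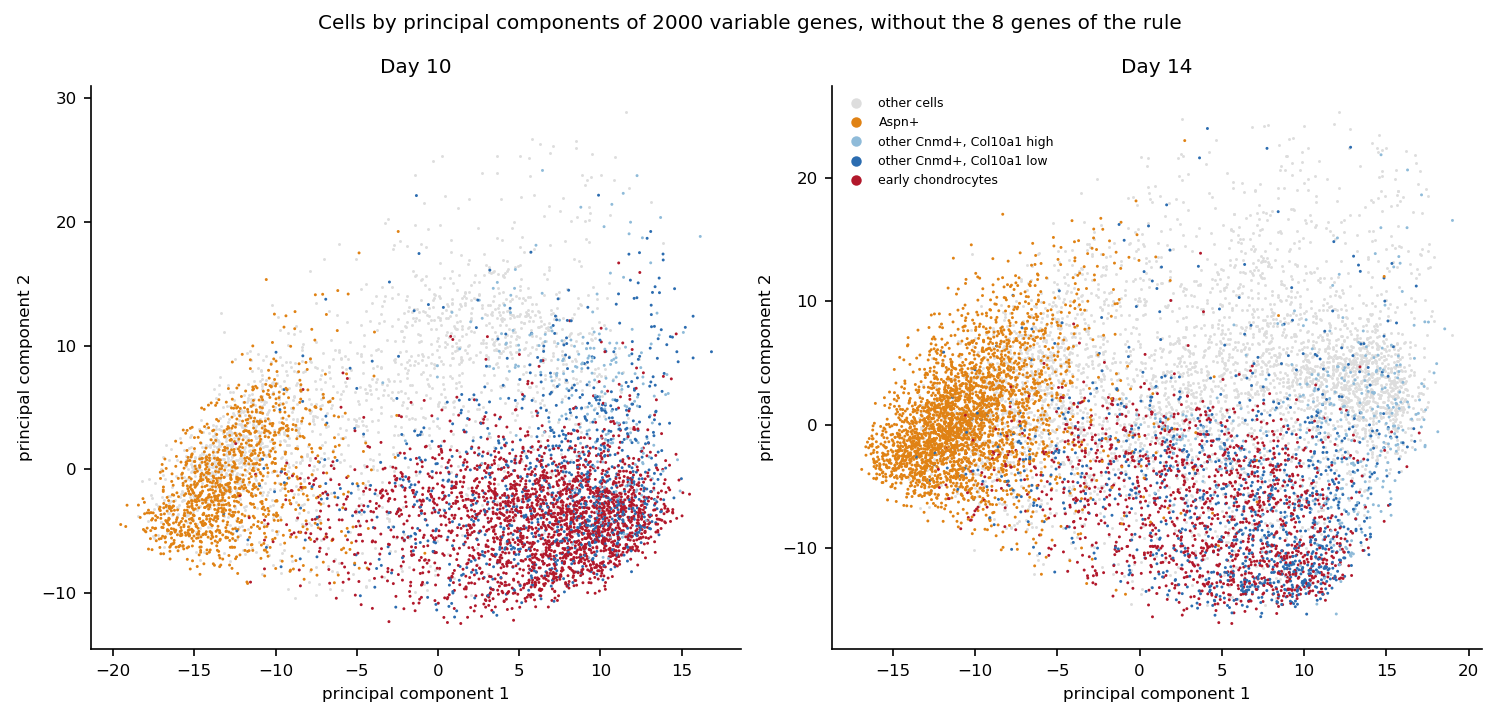
Cells of day 10 and day 14 on the first and second principal components of 2000 variable genes without the genes of the rule, colored by group. Early chondrocytes and the other low-Col10a1 chondrocytes lay over each other and mostly apart from the Aspn+ cells.

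Proliferating cells were a small share of the group. At least 2 UMIs of Mki67 and Top2a together were found in 4.38% of early chondrocytes at day 10 (95% CI, 3.59% to 5.29%) and 4.13% at day 14 (95% CI, 3.14% to 5.31%). The shares were 3.02% and 3.33% in the other low-Col10a1 chondrocytes and 7.26% and 2.17% in Aspn+ cells. After thinning to 5000 UMIs, with at least 1 UMI, they were 4.59% and 4.45%, 4.55% and 3.29%, and 7.84% and 3.26%, respectively. None of 17 cell cycle genes passed the limit against the other low-Col10a1 chondrocytes. Of these genes, 13 were above 0 and 3 below 0 in both libraries. Their median log2 ratios were 0.43 and 0.15, beside 0.00 and 0.02 over all genes. How many of all genes lay above 0 in both libraries is not given here.

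Between the libraries, 71 genes were higher (0.775%) and 56 were lower (0.611%) at day 14 than at day 10 in early chondrocytes, by a log2 ratio of at least 1. Il11, a cytokine gene, went from 142 to 13.5 CPM, and Matn1 from 268 to 66.7 CPM. The early response genes Nr4a1 and Btg2 were at log2 ratios of -1.68 and -1.78. The small heat shock protein genes Hspb1 and Cryab and the gene Mmp13 were higher, by 1.40, 1.52, and 1.40. Igf2 was at -0.70 and H19 at -0.92, short of the limit. The other low-Col10a1 chondrocytes moved in the same direction for each of these genes, for example by -2.69 for Il11 and -1.48 for Matn1.

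Markers of other cell types were low, with exceptions, some of which the other chondrocytes also showed. The 6 endothelial markers summed to 3.59 and 3.63 CPM, with 2 of the 6 at 0, and the 7 muscle markers to 9.20 and 7.26 CPM. The 7 pericyte markers summed to 352 and 297 CPM, of which Cspg4 made up 348 and 277 CPM, and Cspg4 was higher still in the other low-Col10a1 chondrocytes, at 430 and 345 CPM. The 6 Schwann cell markers summed to 262 and 203 CPM, mostly Ncmap and S100b, and the 6 tenocyte markers to 140 and 159 CPM, against 889 and 850 CPM in Aspn+ cells. The 8 hematopoietic markers summed to 64.2 and 61.4 CPM, led by S100a9. At day 10, 1265 of the 1277 S100a9 UMIs and 1254 of the 1276 S100a8 UMIs came from 1 cell.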

How the data were processed

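Cells were captured with a 10x 3′ kit and sequenced by the authors, who aligned reads and collapsed UMIs with Cell Ranger. The submitters' processing notes give version 3.0 and mm10, the sources differ on the versions of software and kit, and the versions are therefore uncertain. The deposited values are raw UMI counts for 32285 genes, without normalization, and 30888 barcodes in 3 libraries, of which 16714 were within the study's limits and had no Ptprc UMI (447, 6587, and 9680 at day 7, day 10, and day 14). Libraries shared 29 to 42 barcodes. Total counts before the limits were 113127788, 144103160, and 195661880, and median counts of the cells kept at day 10 and day 14 were 17372 and 15838. The cells and gene lists were chosen with earlier results of these data known.

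Counts were summed over the cells of a group and scaled to CPM. Genes of the rule, Aspn in the Aspn comparison, and 38 symbols shared by separate identifiers were left out of the tests of a fold limit, as were genes under 5 CPM. A list is described by its counts and median, with no test. The text names the genes of the rule, genes of the lists, the 15 highest and 10 lowest genes of a comparison at 50 CPM or more in the higher group, genes higher than in both groups, and the largest changes between days, with a choice among them after values were seen. Thinning drew 5000 UMIs per cell and left out 17 and 9 early chondrocytes, 92 and 77 of the other low-Col10a1 chondrocytes, and 35 and 201 Aspn+ cells. Doublet scores came from 30 neighbors among simulated pairs. The fold limit was applied to simulated counts of early chondrocytes and the other low-Col10a1 chondrocytes over 9165 genes. Of these genes, 102 were set at a log2 of 1.5, 98 at 2, and 8965 at 0, with none set between 0 and 1.5. At 1.5 and at 2, 100% were found, 0% of those at 0 were called, and 95.1% of intervals held the true ratio. How the limit and the intervals behave when UMIs sit in few cells was not tested. Gene positions are from GENCODE M21 (GRCm38). Scripts ran in Python 3.11.15 with pandas 2.3.3 and numpy 2.4.6 for tables, scikit-learn 1.9.0 for components and neighbors, scipy 1.17.1 for intervals, and matplotlib 3.10.9 for plots.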

Additional observations from a re-analysis of the deposited data

Results flagged for a closer look

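A few genes stood on opposite sides of 0 in the libraries of day 10 and day 14, with counting intervals clear of 0 on both days. The difference between the days was not tested against other libraries. The log2 ratio of S100a8 in early chondrocytes was 5.94 at day 10 and -2.08 at day 14 over all other Cnmd+ cells, 5.91 and -1.89 over the other low-Col10a1 chondrocytes, and 5.94 and -1.74 over Aspn+ cells. For S100a9 the values were 6.10 and -2.11, 5.91 and -1.88, and 5.77 and -1.75. S100a8 and S100a9 encode the calprotectin subunits of neutrophils. At day 10, 1254 of the 1276 S100a8 UMIs of early chondrocytes and 1265 of the 1277 S100a9 UMIs came from 1 cell, and without it S100a8 was at 0.482 CPM, against 0.349 CPM in the other low-Col10a1 chondrocytes without their highest cell. At day 14, 1002 of the 1594 S100a8 UMIs of the other low-Col10a1 chondrocytes came from 1 cell.

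Rgs5, a pericyte gene, had log2 ratios of -2.61 at day 10 and 1.44 at day 14 over all other Cnmd+ cells and of -2.94 and 1.47 over the other low-Col10a1 chondrocytes. At day 10, 133 of the 154 Rgs5 UMIs of the other low-Col10a1 chondrocytes came from 1 cell, and at day 14 the 10 highest early chondrocytes held 87.1% of 433 UMIs. Against Aspn+ cells, the BMP antagonist gene Grem1 was at -0.85 and 0.53, and the proliferation gene Mki67 was at -0.86 and 0.63. Over all genes, opposite signs with intervals clear of 0 were found for 72 of 9165 genes (0.786%) against all other Cnmd+ cells, 71 (0.775%) against the other low-Col10a1 chondrocytes, and 174 of 9164 (1.90%) against Aspn+ cells.

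The day 7 library, which entered no comparison, held 52 cells that met the rule, or 66.7% (95% CI, 55.1% to 76.9%) of its 78 Cnmd+ cells. Col2a1 was at 46668 CPM in them, Igf2 at 188 CPM with a UMI in 22 cells, Nrk at 101 CPM, and Ucma at 2166 CPM. S100a8 was at 735 CPM in these cells, and 6570 of the 7017 cells of that library within the limits had a Ptprc UMI.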

How the results depend on the processing

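Among the highest, the lowest, and the genes higher than in both groups, none past the fold limit changed direction under the alternatives tried. S100a9, flagged above, went from -1.75 to 0.12 over Aspn+ cells at day 14 without the 1% of cells with most of its UMIs. The share of Cnmd+ cells that met the rule depended on how it was written. At day 10 and day 14, respectively, it was 36.6% and 25.5% with at least 4 of the 6 genes, 74.7% and 63.8% with Cnmd of at least 20 per 10000, and 31.0% and 21.5% after thinning to 5000 UMIs, and at day 14 it was 51.3% without an upper limit on genes. With 1 gene not counted, choices made after seeing the data, it was 50.3% and 38.8% for Nrk, 36.9% and 25.9% for Matn4, 57.5% and 40.3% for Penk, 61.5% and 44.6% for Palmd, 38.0% and 29.4% for Zim1, and 61.9% and 44.6% for Plscr2.

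The counts of genes past the limit moved most when the filter for low levels was dropped and 0.5 UMIs were added, and these 2 changes were not separated. In that setting 501 genes were higher and 719 lower than in all other Cnmd+ cells, 353 and 394 than in the other low-Col10a1 chondrocytes, and 1090 and 2717 than in Aspn+ cells. In the day 10 library alone, 98 were higher than in all other Cnmd+ cells, and 51 were higher and 79 lower than in the other low-Col10a1 chondrocytes, where 46 were higher in the day 14 library alone. As a mean over cells 13 were higher than in the other low-Col10a1 chondrocytes. With Cnmd of at least 20 per 10000 on both sides, 70 were lower than in all other Cnmd+ cells and 35 higher than in the other low-Col10a1 chondrocytes.

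The Igf2 log2 ratio over all other Cnmd+ cells, 1.83 at day 10 and 2.08 at day 14, was 1.72 and 1.67 as a mean over cells. At day 10 it was 1.63 with at least 4 genes and 1.52 with Cnmd of at least 20, and at day 14 it was 1.83 after thinning and 1.92 against the other low-Col10a1 chondrocytes. With 50 neighbors, 61.7% of the neighbors of early chondrocytes at day 14 were early chondrocytes. Of the log2 ratios of the highest, the lowest, and the genes higher than in both groups, 209 of 216 kept their sign as a mean over cells. The sign was kept by 210 of 215 after thinning and by 204 of 208 without the 1% of cells with most UMIs of the gene. That last cut was added once the data had been seen. Those among these ratios that changed sign were within the limit. No paired analysis was possible because each day had 1 library, and for the same reason no replicate could be left out. With 1 library a day, counting error was the only error that could be measured, and genes under 5 CPM were beyond the depth of these comparisons.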
